A study of Mus musculus with 162 samples.

Results

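The genes described here are 10 genes of the endoplasmic reticulum (ER) chaperone and unfolded protein response programme in organs of mice fasted for up to 22 h. They were taken by their symbols (Hspa5, Hyou1, Dnajb9, Pdia4, Sdf2l1, Creld2, Manf, Herpud1, Xbp1 and Atf6) from a table of 53686 genes, in which each symbol stands for 1 gene. All 10 passed the filter on low counts in each of the 9 organs, and the lowest single count of a member in a retained library was 5, for Sdf2l1.

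Proteins that enter the secretory pathway fold in the ER. When unfolded proteins build up there, the sensors IRE1, PERK and ATF6 raise the transcription of genes for chaperones, folding enzymes and the machinery that removes misfolded proteins. Secretory cells such as hepatocytes and the enzyme-secreting cells of the stomach carry much of this machinery, and feeding and fasting change the secretory load of the liver. Hspa5 encodes BiP, the main Hsp70 chaperone of the ER lumen, and Hyou1 encodes the larger Hsp110-type chaperone that exchanges its nucleotide. Dnajb9 encodes ERdj4, a J-domain co-chaperone of BiP. Pdia4 is a protein disulfide isomerase, and Sdf2l1 is a partner of the J-domain co-chaperones. Creld2 and Manf encode small ER proteins that are induced by ER stress, and Manf is also secreted. Herpud1 encodes a membrane protein of ER-associated degradation. Xbp1 encodes the transcription factor that IRE1 activates by splicing its mRNA, and Atf6 encodes the sensor that is cut from the membrane to become a transcription factor. The gene counts used here do not separate the spliced from the unspliced form of Xbp1.

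Adult male C57BL/6J mice were fed ad libitum (0 h) or had food withdrawn for 2, 8, 12, 18 or 22 h, with water throughout, and all were killed at the same time of day shortly after lights off, so that each fast began at a different clock time. Each time point held 3 mice, and each of the 18 mice gave olfactory bulb (OB), brain (BRN, telencephalon and diencephalon), cerebellum (CBL), brainstem (BST), stomach (STM), liver (LIV), interscapular brown fat (iBAT), perigonadal white fat (pgWAT) and posterior-subcutaneous white fat (psWAT). The sample titles give only organ, time and replicate number. Libraries with the same time and replicate number were taken to be of the same mouse. All but 5 of the poly(A) RNA libraries were retained, with 3045845 to 27801717 counts and a median of 8735554. The 5 shallow libraries left out (BRN 8 h replicate 3, BRN 18 h replicate 1, STM 12 h replicate 3, iBAT 22 h replicate 1 and psWAT 22 h replicate 2) leave 2 mice in those groups. "Normalized CPM" below means counts divided by library size, on the CPM scale, with TMM factors over the retained libraries. A gene was called where edgeR's quasi-likelihood test gave a Benjamini-Hochberg adjusted p under 0.05 over all genes tested in that organ.

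Some features of the libraries bear on what follows. In OB, STM and LIV the 0 h, 2 h and the first 2 of the 8 h libraries were sequenced in an earlier lane and all others in a later lane, so that in those organs a difference of 18 and 22 h from 0 h cannot be told apart from a difference between lanes. The same holds in pgWAT, where the 0 h libraries shared a lane and those of 18 and 22 h another. CBL and BST were each sequenced in a single lane. In addition, 1 fed mouse (0 h replicate 3) stood apart in these genes in several organs, as described below, so the comparisons with 0 h were repeated without it. Some libraries carried other differences: the 2 iBAT libraries of 22 h were depleted of long transcripts, and pgWAT libraries of 2 h, 18 h and 22 h carried up to 2463, 7430 and 17968 normalized CPM, summed, of testis and epididymis markers, against at most 565 at 0, 8 and 12 h. In OB, 0 h replicate 3 held 287 normalized CPM, summed, of 6 hepatocyte markers, against at most 8.02 in the OB libraries of 2 h and a median of 2.57 over all OB libraries.

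The best known control element of these genes is the ER stress response element (ERSE), a CCAAT box bound by NF-Y set 9 bases before CCACG, the part bound by ATF6 or XBP1. RefSeq promoter sequence of GRCm38.p6 was at hand for 7 of the 10 genes (Hspa5, Dnajb9, Pdia4, Sdf2l1, Creld2, Herpud1 and Xbp1), and Hyou1, Manf and Atf6 were not matched. Searched on both strands in the 250 bases before the RefSeq start, this full element (CCAAT, any 9 bases, CCACG) was found in 2 of the 7, Hspa5 and Creld2, and in 0.113% of all 32851 promoters (37). The shorter ERSE-II form (ATTGG, any 1 base, CCACG) was found in Herpud1 only, and in 0.0304% of all promoters (10). Its letters overlap the CCAAT and CCACG counts that follow. CCAAT alone was found in 6 of the 7 and in 33.8% of all promoters, and CCACG alone in 5 of the 7 and in 28.3%. The core of the XBP1 element, TGACGTGG, was found in none of the 7 and in 0.563% of all. No search pattern matched in the Xbp1 window. A match is only a match of letters. Of the 4 stretches printed here, 2 hold the full element and 1 the shorter form, and Dnajb9, whose change in LIV was called under most settings, is shown because it holds CCAAT and CCACG apart from each other. Each runs 5′ to 3′ on the strand of its gene, with capitals for the CCAAT and CCACG of the full or shorter element (on the other strand, ATTGG and CGTGG) or, in Dnajb9, of each match.

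Hspa5 (chr2:34771970-34772089, plus strand): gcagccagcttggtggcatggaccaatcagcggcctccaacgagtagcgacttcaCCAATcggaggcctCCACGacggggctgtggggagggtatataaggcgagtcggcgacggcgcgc
Creld2 (chr15:88819496-88819575, plus strand): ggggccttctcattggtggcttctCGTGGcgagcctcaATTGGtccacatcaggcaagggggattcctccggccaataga
Herpud1 (chr8:94386349-94386428, plus strand): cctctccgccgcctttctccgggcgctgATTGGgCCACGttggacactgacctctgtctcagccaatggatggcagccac
Dnajb9 (chr12:44210069-44210188, minus strand): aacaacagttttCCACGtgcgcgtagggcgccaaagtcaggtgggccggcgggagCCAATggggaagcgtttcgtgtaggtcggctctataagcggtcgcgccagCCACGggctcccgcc

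The Hspa5 stretch ends at the base before the RefSeq start, and its element lies 65 to 47 bases before that start. The element of Creld2 is read on the opposite strand and ends 108 bases before the start, and that of Herpud1 lies 52 to 42 bases before the start. The Gencode annotation starts Hspa5 and Dnajb9 further upstream, so both stretches fall inside the Gencode genes, at chr2:34771970-34777547 and chr12:44205559-44210326. Creld2 lies at chr15:88819646-88826683 and Herpud1 at chr8:94386438-94395377. The remaining members lie at chr9:44379490-44392369 (Hyou1), chr6:47796141-47813430 (Pdia4), chr16:17130138-17132383 (Sdf2l1), chr9:106838312-106891979 (Manf), chr11:5520659-5525893 (Xbp1) and chr1:170704674-170867771 (Atf6). All are protein-coding, and the counts are sums over their exons.

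LIV held the most of these transcripts. Hspa5 averaged 981 ± 574 normalized CPM in LIV (SD, n = 18), 663 ± 367 in STM (n = 17), 486 ± 60.05 in pgWAT (n = 18) and 415 ± 37.2 in iBAT (n = 17), while the 4 nervous organs and psWAT averaged 232.6 (BRN) to 282 (BST). In the fit over all organs with the mouse as block, all 10 genes were higher in LIV than the mean of the other 8 organs, where 35.8% of all genes tested were higher. In STM 8 were higher, and Dnajb9 and Atf6 were lower, against 35.8% of all genes higher and 34.4% lower. These shares of all genes are large because organs differ in most genes. For Hspa5, LIV stood above STM, STM above pgWAT, and iBAT above BST, while pgWAT and iBAT, and the run from BST through psWAT, CBL and OB to BRN, held no neighbours that differed at adjusted p under 0.05. The order was not the same for every gene. For Xbp1, STM (363), LIV (355) and pgWAT (308 normalized CPM) led without a called difference between neighbours, and psWAT, CBL and iBAT followed. For Herpud1, LIV (788), STM (297), iBAT (137.6) and psWAT each stood above the next. Dnajb9 was second highest in iBAT (74.1 against 107 in LIV), the run from iBAT through BST, pgWAT and OB to CBL held no neighbours that were called apart, CBL (56.5) stood above psWAT (41.6), and STM (38.4) and BRN (28.8) at the bottom. Herpud1 ran down to 50.3 in OB. Sdf2l1 ran from 42.4 in LIV and 37.1 in STM, which were not called apart, to 2.73 in iBAT. Atf6 spanned the narrowest range of organ means, from 39.4 in psWAT to 78 in LIV. With CPM on raw totals, 5 of the 10 genes were highest in LIV, against 9 with TMM scaling. On that scale Hspa5 averaged 612 in LIV, 555 in STM and 519 in pgWAT.

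Per kb of exon, the scale on which genes can be set side by side, Herpud1 (338 normalized CPM per kb) and Hspa5 (232.1) were the most abundant members in LIV, followed by Xbp1 (109.3) and Creld2 (95.5). Atf6 was the least abundant there, at 8.45 per kb. In STM the order began with Hspa5 (156.8), Herpud1 (128) and Xbp1 (111.8).

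**Figure D1:**
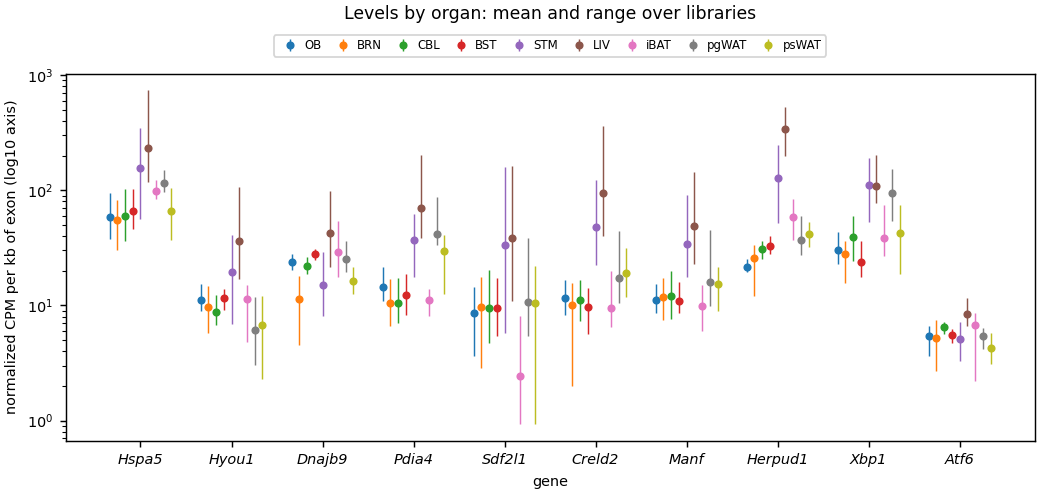
Level of each of the 10 genes in each organ as normalized CPM per kb of exon on a log10 axis. Points are means over the retained libraries of an organ and bars run from the lowest to the highest library. LIV is highest for 9 genes, Xbp1 being the exception, and the means of Herpud1 and Sdf2l1 spread the most between organs.

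The fed mouse that stood apart was the high one in LIV, STM and the nervous organs. In LIV, Hspa5 was 1025, 1052 and 3119.9 normalized CPM in 0 h replicates 1, 2 and 3, so that replicate 3 lay 3.00 times above the mean of the other 2. Creld2 was 91.4, 92.9 and 496 (5.38 times) and Sdf2l1 34.4, 31.3 and 180.4 (5.49 times). Herpud1, in contrast, was 903, 941 and 944. In STM, Sdf2l1 was 26.6, 22.9 and 175 (7.06 times) and Hspa5 615, 658 and 1475. In CBL, Hspa5 was 171.2, 184 and 411, in BST 241, 194 and 389, and in OB 193.4, 177 and 373. In iBAT the same mouse was not the highest, with Hspa5 at 515, 404 and 457. Replicate 3 lay above 2 times both other fed mice for 6 members in LIV, 5 in STM and 4 in CBL, where 3.34%, 5.24% and 0.457% of all genes tested did so. It did so for 1 each in OB and BST (0.478% and 0.542% of all genes). For none did it do so in BRN (1.82%), iBAT (4.55%), pgWAT (1.35%) and psWAT (8.32%). It was the highest of all LIV libraries for 7 members, where 7.15% of all genes had their highest value in it. It was also the highest LIV library for summed leukocyte markers (268.5 normalized CPM, against a median of 107 over LIV libraries) and for plasma and B cell markers (56.5 against 36.7), whose part was not tested.

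The STM library of this mouse differed from the other STM libraries in further ways. Its slope of log2 CPM on log2 exon length, relative to the organ, was -0.255, against -0.0766 to 0.110 in the others, so it held fewer reads from long transcripts. Sdf2l1 and Creld2, the members with the shortest exon lengths, were 7.06 and 3.09 times the mean of the other fed mice in it, and Atf6, the longest, was 0.627 times that mean. Mitochondrial transcripts took 2.83% of its counts, against 6.45% and 9.57% in the other fed libraries. Its markers of pancreatic acinar cells, which are rich in ER chaperones, summed to 81884 normalized CPM, against 37339 and 47428, and its mucous cell markers to 117470, against 45883 and 70346. With the length trend taken out, 8 members were called in STM for 18 and 22 h against 0 h (17.1% of all genes). The part of the other differences was not tested.

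**Figure D2:**
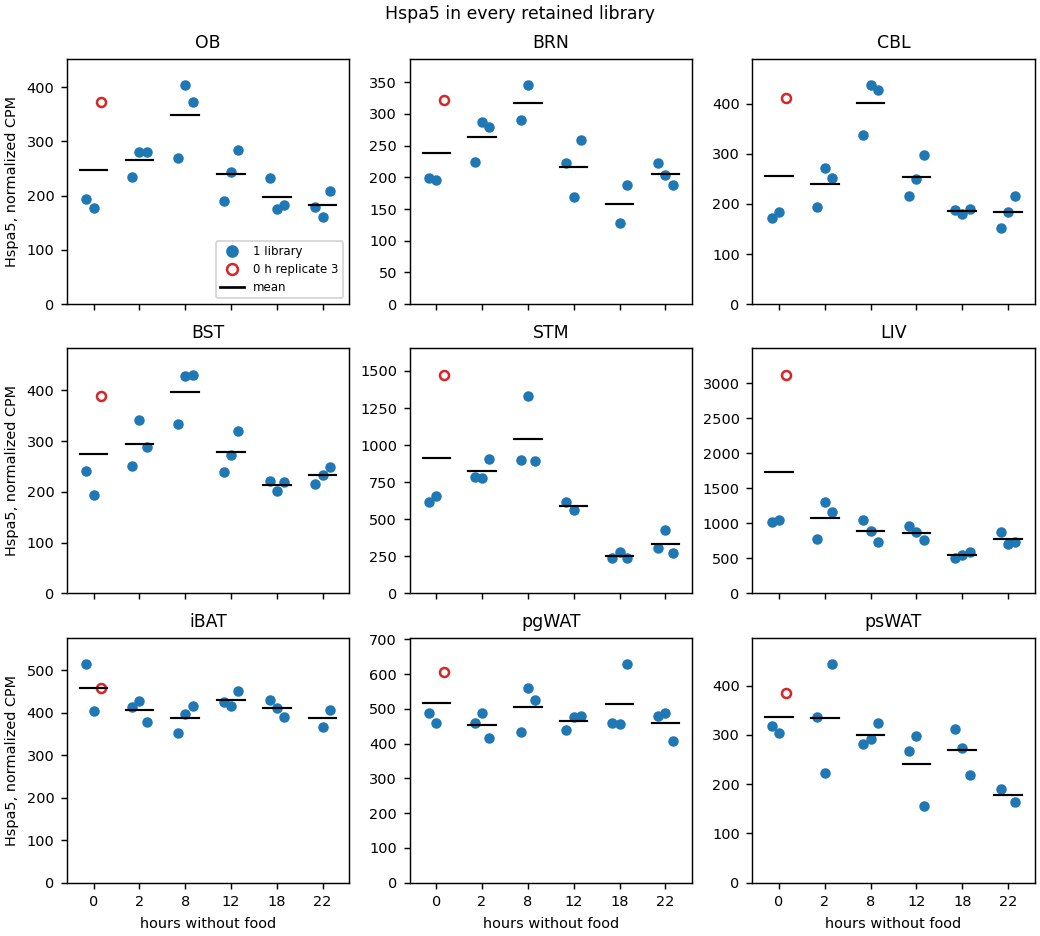
Hspa5 in every retained library, in normalized CPM from 0, against hours without food, with 1 panel for each organ. Points are libraries, lines are group means and the red open circles are 0 h replicate 3. In LIV the 18 h libraries lie at 499 to 594 and in STM at 236 to 278, below every fed library of the organ, and in CBL the 8 h libraries and 0 h replicate 3 are the highest.

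The question of the study was how each organ's transcriptome changes with the length of a fast. In the joint test of all 5 fasting times against 0 h, 5 members were called in STM (Hspa5, Hyou1, Pdia4, Manf and Xbp1, where 6.55% of all genes were called), 3 in LIV (Hspa5, Dnajb9 and Atf6, 16%), 5 in iBAT (Hyou1, Sdf2l1, Creld2, Herpud1 and Atf6, 29%) and 1 in OB (Hyou1, 15.4%). None was called by edgeR in BRN (0.00597% of all genes), CBL (2.99%), BST (0.107%), pgWAT (0%) or psWAT (0%), where 3, 3, 6, 0 and 1 members had an unadjusted p under 0.05 and DESeq2 called 0, 5, 2, 0 and 1. Without 0 h replicate 3 the joint test called 8 in STM (7.04%), 6 in LIV (17.1%), 3 in iBAT (27.9%), 8 in OB (22%), 6 in CBL (3.07%) and 4 in BST (1.24%). None of the joint calls in iBAT stood with the length trend taken out (18.6%) or with library series as covariate (2.35%), that in OB was lost with the length trend taken out (6.53%), and none in STM or LIV stood with lane as a covariate (0% and 2.1%).

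After 18 and 22 h, 5 of the 10 genes were lower than at 0 h in LIV (Hspa5, Hyou1, Dnajb9, Pdia4 and Sdf2l1), all by over 1 on the log2 scale, where 10.6% of the 14023 genes tested were called and 5.39% were called lower. None was called higher, and the median log2 fold change of the 10 was -1.18, against 0.01 for all genes. LIV Hspa5 was 777, 1308 and 1155 normalized CPM at 2 h, 1050.4, 885 and 731 at 8 h, 962, 878 and 757 at 12 h, 499, 555 and 594 at 18 h and 878, 707 and 732 at 22 h. The 18 and 22 h values did not overlap the fed ones, and every 18 h library was below every 22 h library. The log2 fold change of 18 and 22 h against 0 h was -1.41 ± 0.29 (SE), adjusted p = 0.00961, and without replicate 3 it was -0.65 ± 0.16 (SE), adjusted p = 0.0178.

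Dnajb9 was lower in LIV from 8 and 12 h on. It was 142.5, 134.4 and 250.05 normalized CPM at 0 h and 110.3, 130.3 and 156.4 at 2 h, then 94.8, 100.1 and 88.7 at 8 h, 97, 87.6 and 81.2 at 12 h, 62.1, 55.1 and 79.3 at 18 h and 100.5, 72.2 and 91.3 at 22 h. Every library from 8 h on lay below every fed library. The log2 fold change was -0.96 ± 0.17 (SE), adjusted p = 0.00431 for 8 and 12 h, the only member called in that comparison (8.89% of all genes), and -1.21 ± 0.17 (SE), adjusted p = 0.000438 for 18 and 22 h. Without replicate 3 both were called (9.51% of all genes for 8 and 12 h), at -0.59 ± 0.14 (SE), adjusted p = 0.0127 and -0.85 ± 0.14 (SE), adjusted p = 0.00181. At 12 h alone Dnajb9 was again the only member called, with and without replicate 3 (-0.996 ± 0.203 (SE), adjusted p = 0.00509, where 11.9% of all genes were called, and 12% without it). With lane as a covariate the log2 fold change for 8 and 12 h was -0.88 with an adjusted p of 0.0731, and no member was called (4.96% of all genes).

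The other 3 lower genes depended on the third fed mouse. Sdf2l1 was 17.7, 16.7 and 12.1 at 18 h and 33.8, 26.9 and 22.5 at 22 h, so that the 22 h values overlapped those of the first 2 fed mice. Its log2 fold change went from -1.99 ± 0.47 (SE), adjusted p = 0.0208 to -0.64 ± 0.24 (SE), adjusted p = 0.107 without that mouse. For Hyou1, at 122.6 to 165.5 (18 h) and 197 to 299 (22 h) against 287, 275 and 773 when fed, it went from -1.27 ± 0.30 (SE), adjusted p = 0.0174 to -0.59 ± 0.19 (SE), adjusted p = 0.0713. For Pdia4 it went from -1.16 ± 0.32 (SE), adjusted p = 0.0373 to -0.32 ± 0.16 (SE), adjusted p = 0.243, and with each LIV library left out in turn Pdia4 was called in 12 of 18 fits. Creld2 (-1.39 ± 0.49 (SE), adjusted p = 0.0913) and Manf (-1.13 ± 0.36 (SE), adjusted p = 0.0638) did not pass the test, and without that mouse their log2 fold changes were -0.06 and -0.28. The log2 fold changes of Herpud1 (-0.04), Xbp1 (-0.20) and Atf6 (-0.17) were small. Without replicate 3, then, 2 members were lower after 18 and 22 h (6.57% of all genes called), and at 18 h alone 4 were lower (6.58%), Hspa5, Hyou1, Dnajb9 and Sdf2l1, against 5 with all 3 fed mice (9.97%). At 22 h alone only Dnajb9 was called in LIV, with and without that mouse (4.15% and 2.49% of all genes).

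Herpud1 followed another course in LIV. It was 903, 941 and 944 normalized CPM in the fed mice, 544, 509 and 704 at 8 h, 755, 627 and 539 at 12 h, 461, 578 and 1243 at 18 h and 942, 1035 and 1235 at 22 h. The 8 and 12 h libraries were below all fed ones and the 22 h libraries ran from within the fed range to above it. Within the earlier lane, the 2 libraries of 8 h gave a log2 fold change of -0.84 for Herpud1 against 0 h (edgeR adjusted p = 0.0405), the only member called there (2.28% of all genes). With both lanes, the log2 fold change of 8 and 12 h against 0 h was -0.61 ± 0.24 (SE), adjusted p = 0.122.

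STM held the most called decreases. After 18 and 22 h, 8 of the 10 genes were lower than at 0 h, 7 of them by over 1 on the log2 scale, where 15.3% of the 16281 genes tested were called and 9.09% were called lower. Herpud1 and Atf6 did not pass. The median log2 fold change of the 10 was -1.19, against -0.00 for all genes. STM Hspa5 was 615, 658 and 1475 normalized CPM at 0 h, 787, 777 and 906 at 2 h, 899, 1328 and 894 at 8 h, 613 and 562 at 12 h, 241, 278 and 236 at 18 h and 304, 427 and 271 at 22 h. The late values lay below those of every other STM library. The log2 fold change was -1.67 ± 0.26 (SE), adjusted p = 0.00232, and -1.10 ± 0.20 (SE), adjusted p = 0.0163 without replicate 3.

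With all 3 fed mice, Sdf2l1 had the largest log2 fold change of the members in STM. From 26.6, 22.9 and 175 when fed it went to 12, 7.92 and 6.41 at 18 h and 18.3, 19.8 and 9.66 at 22 h, with no overlap, after 51.2, 69.2 and 43.6 at 8 h. Its log2 fold change was -2.69 ± 0.52 (SE), adjusted p = 0.0079 with and -1.03 ± 0.26 (SE), adjusted p = 0.0449 without replicate 3. Without that mouse the log2 fold change of Hspa5 (-1.10) was larger. Pdia4 moved from 88.2, 105.1 and 149.9 when fed to 48.5, 42.4 and 48.3 at 18 h and 54.4, 58.8 and 43.2 at 22 h, again with no overlap. Its log2 fold change was -1.22 ± 0.18 (SE), adjusted p = 0.00232, and -0.94 ± 0.17 (SE), adjusted p = 0.0165 without that mouse. Manf (132.7, 103.1 and 323 when fed, 62.1, 89.3 and 63.1 at 18 h, 67.2, 71.7 and 64.5 at 22 h) gave -1.44 ± 0.26 (SE), adjusted p = 0.00455, and -0.73 ± 0.16 (SE), adjusted p = 0.0337 without it. Hyou1 gave -1.16 ± 0.22 (SE), adjusted p = 0.0052, and -0.87 ± 0.22 (SE), adjusted p = 0.0441 without it. These 5 genes were called both ways, where 3.02% of all genes were called without replicate 3.

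Dnajb9, Creld2 and Xbp1 were called in STM only with all 3 fed mice. Their log2 fold changes went from -0.93 to -0.40, from -1.24 to -0.42 and from -1.05 to -0.69, and their adjusted p without that mouse was 0.242, 0.298 and 0.0636. Xbp1 was 362, 355 and 619 normalized CPM when fed, 173, 181 and 188.5 at 18 h and 263, 323 and 189.6 at 22 h. Herpud1 (-0.65 ± 0.28 (SE), adjusted p = 0.11) and Atf6 (-0.18) had the same sign. At 18 h alone 8 members, all but Herpud1 and Atf6, were lower than at 0 h in STM (14.3% of all genes called), and 6 without replicate 3 (5.28%). At 22 h alone only Pdia4 was called (0.24%), and none without it (0% of all genes, edgeR), where 3 members reached an unadjusted p under 0.05.

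The decrease in STM came with a change in cell type markers. Markers of parietal cells summed to 5960 to 9461 normalized CPM at 0 h, 2895 to 3988 at 18 h and 1800 to 8226 at 22 h. Those of mucous cells summed to 45883 to 117470 at 0 h, 12301 to 43424 at 18 h and 13257 to 58324 at 22 h, and those of chief cells to 139290 to 206750, 76727 to 144150 and 88420 to 184920. Smooth muscle markers summed to 5860 to 7191 at 0 h, 5526 to 12886 at 18 h and 7833 to 17063 at 22 h. Pancreatic acinar markers summed to 37339 to 81884 at 0 h, with the highest value in replicate 3, to 20840 to 45626 at 18 h and to 27480 to 46308 at 22 h. The mitochondrial share of the counts also moved, from 2.83% to 9.57% at 0 h to 11.0% to 15.8% at 18 h and 11.0% to 24.4% at 22 h. The part of these shifts in the lower chaperone transcripts was not tested, and in whole organs fewer cells of a type and less RNA per cell cannot be told apart. In LIV, hepatocyte markers summed to 125230 to 159600 normalized CPM over all libraries.

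**Figure D3:**
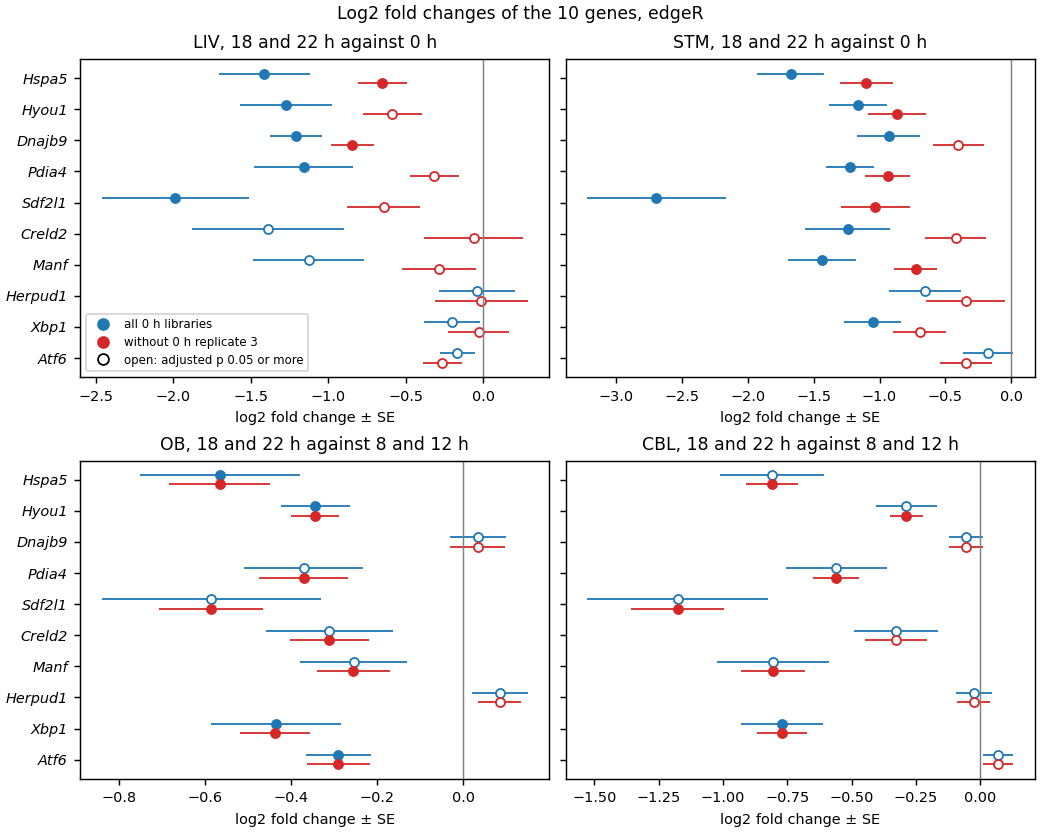
Log2 fold changes of the 10 genes ± SE from edgeR. The upper panels set 18 and 22 h against 0 h in LIV and STM, and the lower panels set 18 and 22 h against 8 and 12 h in OB and CBL. Blue is the fit with all fed libraries, red the fit without 0 h replicate 3, and open points have an adjusted p of 0.05 or more. Leaving out that library moves most LIV and STM points towards 0, and narrows the bars in OB and CBL without moving the points.

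Lane and fasting time could be separated in part within the later lane, which holds 8 h replicate 3, 12 h, 18 h and 22 h. There, 18 and 22 h were set against 8 and 12 h. In OB 7 members were lower (18.2% of all genes called). In STM none was called by edgeR, where 0.0128% of all genes were called, but 10 of 10 had a log2 fold change below 0, with a median of -0.83, and 8 had an unadjusted p under 0.05. In LIV none was called (0.0146% of all genes), 9 were below 0 with a median of -0.24, and 4 had an unadjusted p under 0.05. With lane as a covariate over all libraries, no member was called for 18 and 22 h against 0 h in STM or LIV. The log2 fold change of Hspa5 was then -1.32 in STM (adjusted p = 0.72) and -1.03 in LIV (adjusted p = 0.46).

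The 18 and 22 h libraries could also be set against those of 8 and 12 h, a comparison that does not use the fed mice for its estimate. In STM 6 members were lower in the longer fasts (3.96% of all genes called, 1.71% lower): Hspa5 (-1.41 ± 0.23 (SE), adjusted p = 0.0118), Hyou1 (-1.13), Pdia4 (-0.99), Manf (-0.92), Xbp1 (-0.94) and Dnajb9 (-0.82). Single libraries decided some of these calls: none of the 10 was called without STM 12 h replicate 1, where 0 of all genes were called, 1 without 18 h replicate 1 (16 genes), and 3 without any of 8 h replicate 1 (44 genes), 18 h replicate 3 (33) or 22 h replicate 3. Over the fits that each left out 1 STM library, 0 to 1417 of all genes were called. With replicate 3 left out of the spread, 8 were lower (8.74%), Sdf2l1 (-1.77 ± 0.21 (SE), adjusted p = 0.000659) and Creld2 being added. In OB 4 were lower (29.3% of all genes called, 14.2% lower): Hspa5 (-0.57 ± 0.19 (SE), adjusted p = 0.0372), Hyou1 (-0.34), Xbp1 (-0.44) and Atf6 (-0.29), and 8 without replicate 3 (31.9%). With each OB library left out in turn, Hyou1 and Atf6 were called in 18 of 18 fits, Hspa5 in 10 and Xbp1 in 7, and 2 members were called without any 1 of replicates 2 and 3 of 8, 12 and 18 h and replicates 1 and 2 of 22 h. In CBL only Xbp1 was lower (-0.77 ± 0.16 (SE), adjusted p = 0.0478, where 0.795% of all genes were called), and in BST only Creld2 (-0.69 ± 0.14 (SE), adjusted p = 0.0365, 0.328%). With each library left out in turn, Xbp1 was called in 3 of 18 fits in CBL and Creld2 in 8 of 18 in BST. The BST call was lost with the length trend taken out (0.298% of all genes) and with library series as covariate (0.131%). Without replicate 3 the counts were 6 in CBL (1.46%) and 4 in BST (0.873%), with Hspa5 at -0.81 ± 0.10 (SE), adjusted p = 0.000829 in CBL and -0.55 ± 0.10 (SE), adjusted p = 0.0318 in BST. In iBAT Hyou1 (-0.71 ± 0.15 (SE), adjusted p = 0.0096) and Atf6 (-0.54) were lower, with and without replicate 3, where 23.3% and 23.4% of all genes were called, and with each iBAT library left out in turn they were called in 16 and 11 of 17 fits. With the length trend taken out 1 member was called there (12.9% of all genes), and none with library series as covariate (0%). In LIV none was called by edgeR (2.7% of all genes), 2 had an unadjusted p under 0.05 and DESeq2 called 1. Without replicate 3, Hspa5 (-0.41 ± 0.11 (SE), adjusted p = 0.0453), Pdia4 (-0.55) and Sdf2l1 (-1.09) were lower (4.66%).

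In OB, CBL and BST the 8 h mice were high. CBL Hspa5 was 338, 437 and 427 normalized CPM at 8 h, against 171.2, 184 and 411 at 0 h, 195, 272 and 252 at 2 h, 217, 249 and 298 at 12 h, 188.04, 179 and 190.7 at 18 h and 153.05, 184 and 215 at 22 h. The 8 h values overlapped those at 0 h only through replicate 3. BST Hspa5 was 333, 428 and 431 at 8 h, 221, 203 and 219 at 18 h and 215, 232.5 and 249.9 at 22 h, and the 8 h values again overlapped the fed ones (241, 194 and 389) only through replicate 3. With all fed mice, no member was called at 8 h against 0 h in OB, CBL, BST or BRN by edgeR, where 0.0179%, 0%, 0% and 0% of all genes were called, and 2, 4, 6 and 4 members had an unadjusted p under 0.05. Without replicate 3, 4 members were higher in OB (0.364% of all genes called), 6 in CBL (0.358%) and 7 in BST (1.29%), while none was called in BRN (0%), where 6 had an unadjusted p under 0.05. In CBL the fed libraries were also the deepest, with 20396385 to 22071004 counts against 6487419 to 9487976 in all others, and the part of depth in the CBL comparisons with 0 h was not tested. Replicate 3 was left out after the values had been seen, because these genes were high in it. Its removal lowers the fed means of the same genes, so the counts without it are not an independent test of a rise at 8 h.

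In CBL the 6 were Hspa5 (1.23 ± 0.16 (SE), adjusted p = 0.00246), Sdf2l1 (1.62), Pdia4 (1.03), Hyou1 (0.71), Xbp1 (0.88) and Manf (0.93). In BST the 7 were Hspa5 (0.85), Hyou1 (0.35), Pdia4 (0.77), Sdf2l1 (1.26), Creld2 (0.89), Manf (0.62) and Xbp1 (0.67), with Hspa5 at 0.85 ± 0.16 (SE), adjusted p = 0.032. In OB the 4 were Hyou1 (0.56), Sdf2l1 (1.48), Creld2 (0.83) and Xbp1 (0.69). CBL Sdf2l1 was 15.5, 17.4 and 22.3 normalized CPM at 8 h, 5.45, 6.97 and 20.9 at 0 h and 6.36, 6.2 and 6.16 at 18 h, so that 0 h replicate 3 lay among the 8 h values. Xbp1 in CBL behaved alike, with 155.98, 179 and 195 at 8 h, 95.1, 104.95 and 181 at 0 h and 93.5, 79 and 100.2 at 18 h. Dnajb9 did not share this course. In CBL it was 54.4 to 58.4 at 0 h and 48.5 to 58.5 at 8 h, and its log2 fold change without replicate 3 was -0.01. Atf6 was 59.5 to 60.2 at 0 h and 56.8 to 64.2 at 8 h.

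**Figure D4:**
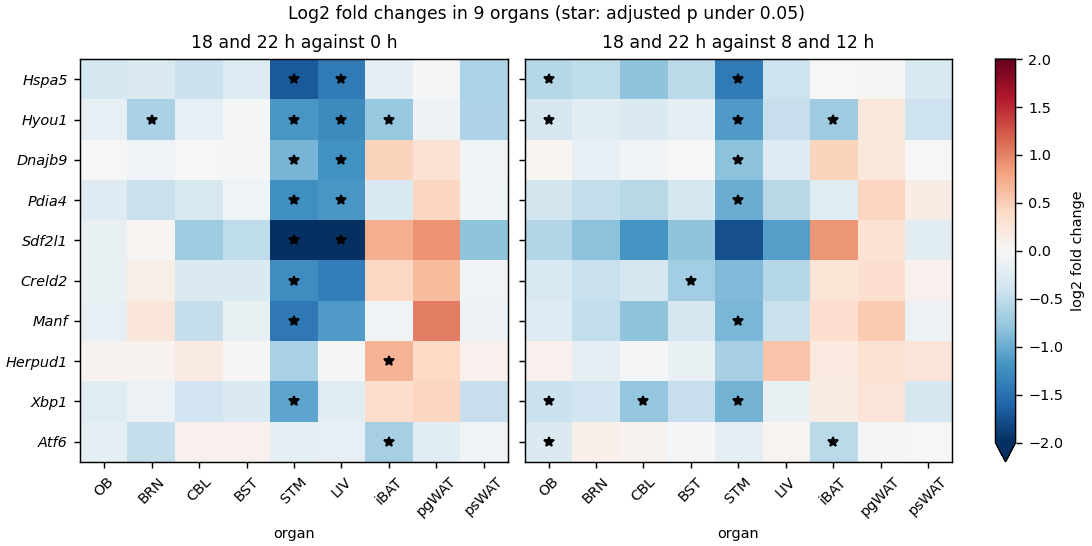
Log2 fold changes of the 10 genes in the 9 organs, as colours from blue (lower) to red (higher), for the comparisons named above each panel, with edgeR calls marked. LIV and STM hold most of the called decreases after 18 and 22 h.

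BRN gave few calls. Hyou1 was lower after 18 and 22 h (-0.66 ± 0.19 (SE), adjusted p = 0.037, where 11.2% of all genes were called), from 96.1, 86.6 and 108 normalized CPM at 0 h to 46.7 and 71.2 at 18 h and 59.3, 41.3 and 62.9 at 22 h, and its adjusted p was 0.144 without replicate 3 (1.53% of all genes called). Manf was higher after 8 and 12 h (0.73 ± 0.20 (SE), adjusted p = 0.0364, 8.16%), and its adjusted p was 0.0509 without it (0.74%). With each BRN library left out in turn they were called in 8 and 9 of 16 fits, and with a trend on transcript length taken out neither was called (5.36% and 0.424% of all genes). With the series of library numbers or with lane as covariate neither was called (0%). Mitochondrial transcripts took 3.49% to 6.82% of the BRN counts at 0 h, 6.82% to 11.8% at 18 h and 7.02% to 10.9% at 22 h. Summed oligodendrocyte markers ran from 5054 to 22946 normalized CPM over BRN libraries, highest in 22 h replicate 2. The part of either was not tested. The BRN fed libraries had slopes of log2 CPM on log2 exon length of 0.153 to 0.204, against -0.178 to 0.112 in all other retained BRN libraries, and were of a library series that held 2 of the retained fasted BRN libraries. At 22 h alone Hyou1 was the only member called (-0.77 ± 0.22 (SE), adjusted p = 0.0418, 6.88% of all genes), and none was called without replicate 3 (0%, edgeR), where 2 had an unadjusted p under 0.05.

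The fats gave few calls of these genes. In iBAT, Herpud1 was higher after 18 and 22 h (0.68 ± 0.16 (SE), adjusted p = 0.00901), and Hyou1 (-0.77 ± 0.17 (SE), adjusted p = 0.00762) and Atf6 (-0.66 ± 0.20 (SE), adjusted p = 0.0286) were lower, where 20.9% of all genes were called. Without replicate 3, Herpud1 (0.58) and Hyou1 (-0.75) were called and Atf6 was not (17.2% of all genes). iBAT Herpud1 was 116.8, 102.6 and 85.7 normalized CPM at 0 h, 145.5, 142.9 and 142.3 at 8 h, 136.97, 129 and 163 at 18 h and 169.3 and 197 at 22 h. At 22 h alone Sdf2l1, Creld2 and Herpud1 were higher and Hyou1 and Atf6 lower (41% of all genes called), and the same 5 were called without replicate 3 (38.3%). Sdf2l1 was 8.95 and 6.86 at 22 h, against 1.04 to 3.38 in the other iBAT libraries. Both 22 h libraries had fewer reads from long transcripts, with a slope of log2 CPM on log2 exon length of -0.47 and -0.32 against -0.13 to 0.18 in the other libraries of the organ. Mitochondrial transcripts took 5.47% and 11.8% of their counts, against 12.9% to 36.2% in the other iBAT libraries. Among the members Sdf2l1 and Creld2 have the shortest exon lengths and Atf6 and Hyou1 the longest. With the length trend taken out, 1 member was called after 18 and 22 h (13.4% of all genes), and without iBAT 0 h replicate 2 also 1. In pgWAT and psWAT no member was called after 18 and 22 h by edgeR or DESeq2, where edgeR called 0.00609% and 0% of all genes, and 2 and 1 had an unadjusted p under 0.05. Without replicate 3 none was called by edgeR either (0.00612% and 0% of all genes). pgWAT Manf was 36.3, 39 and 37.7 at 0 h and 56.4, 34.8 and 160.7 at 18 h, where replicate 3, the library with the most epididymis markers of its time, was the highest. psWAT Hspa5 was 318, 303 and 386 at 0 h and 190.5 and 163.9 in the 2 libraries of 22 h. In psWAT 9 of the 10 log2 fold changes were below 0 after 18 and 22 h, with a median of -0.11 against -0.01 for all genes, and 9 after 8 and 12 h. Without replicate 3, 6 were below 0 in each comparison, with medians of -0.14 and -0.06. Markers of other cell types varied widely between psWAT libraries, those of plasma and B cells from 219.1 to 5523 and those of skeletal muscle from 9.96 to 23979 normalized CPM, summed, and their part was not tested. At 22 h alone Hspa5 (-0.91 ± 0.31 (SE), adjusted p = 0.293), Xbp1 (-0.97) and Hyou1 (-1.02) had an unadjusted p under 0.05 and did not pass.

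Whether a change was larger in an organ than in the rest was tested as the organ by time interaction, with the mouse as block. The contrast planned was LIV after 18 and 22 h against 0 h, and 17 more (the other organs, and 18 and 22 h against 8 and 12 h in all) were added after the data had been seen. In LIV the change of Hspa5 was -0.77 on the log2 scale below the mean change of the other 8 organs and that of Dnajb9 -1.10, the 2 members called (0.606% of all genes), and without the third fed mouse none was called by edgeR (0.0909% of all genes). In STM 8 members had fallen by more than the mean of the other organs after 18 and 22 h against 0 h (14.7% of all genes called), with Hspa5 at -1.11 and Sdf2l1 at -1.98, and 3 without the third fed mouse (2.03%). Against 8 and 12 h, 8 members had fallen by more in STM with that mouse (6.71%) and 8 without it (7.34%). In iBAT and pgWAT most called differences had the opposite sign. Against 0 h they were Dnajb9 (0.69), Herpud1 (0.64) and Xbp1 (0.68) above the other organs and Atf6 (-0.52) below in iBAT (9.28%), and Pdia4 (0.82), Manf (1.30) and Xbp1 (0.70), all above, in pgWAT (3.34%). Without the third fed mouse 1 was called in iBAT (9.41%) and none in pgWAT (0.296%, edgeR). Against 8 and 12 h, 5 were above and Atf6 below in iBAT (15.2%), and 5 were above in pgWAT (3.34%). Without pgWAT 18 h replicate 3, pgWAT 22 h replicate 2 and psWAT 12 h replicate 3, which carried markers of another tissue, the counts against 0 h were 1 in pgWAT (2.46%), 5 in LIV (1.23%), 9 in STM (19%) and 5 for iBAT (11.3%), and the pgWAT count against 8 and 12 h went from 5 to 2 (0.155%). The part of the transcript length values of the iBAT libraries of 22 h in these differences was not tested.

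With the same time and replicate number taken as the same mouse, Hspa5 could be followed from organ to organ over 15 to 18 mice per pair. The titles do not state this match, and the correlations rest on it. All 6 pairs of nervous organs were correlated, with Pearson's r from 0.76 to 0.96 on log2 normalized CPM, each with a permutation p that passed Benjamini-Hochberg adjustment over the 36 pairs of organs. These values mix differences between times with those between mice. With the mean of each time point taken out, 3 pairs passed: CBL with BST (r = 0.93, adjusted permutation p = 0.0126), OB with BST (r = 0.91, 0.0126) and OB with CBL (r = 0.89, 0.0245). Without the third fed mouse, r with the time means taken out was 0.82 for CBL with BST, 0.81 for OB with BST and 0.75 for OB with CBL. With the time means kept, Spearman's rho for CBL with BST was 0.91 over all mice. On that scale r was 0.93 without the 2 mice farthest from the median and 0.95 without the third fed mouse. STM and LIV were correlated with each other (r = 0.73, adjusted permutation p = 0.00156) and with the nervous organs (r = 0.44 to 0.80, 5 of 8 pairs passing), but none of these passed with the time means taken out. Among the fats, only psWAT with STM passed (r = 0.61), and with the time means taken out it did not (r = 0.36, adjusted permutation p = 0.284). The mice were also split by the lane of their LIV library. Within those of the later lane (8 h replicate 3, 12 h, 18 h and 22 h) the nervous pairs ranged from 0.32 to 0.97. Within the others they ranged from 0.94 to 0.97. As CBL and BST were each of a single lane, this splits their libraries by fasting time and not by lane.

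**Figure D5:**
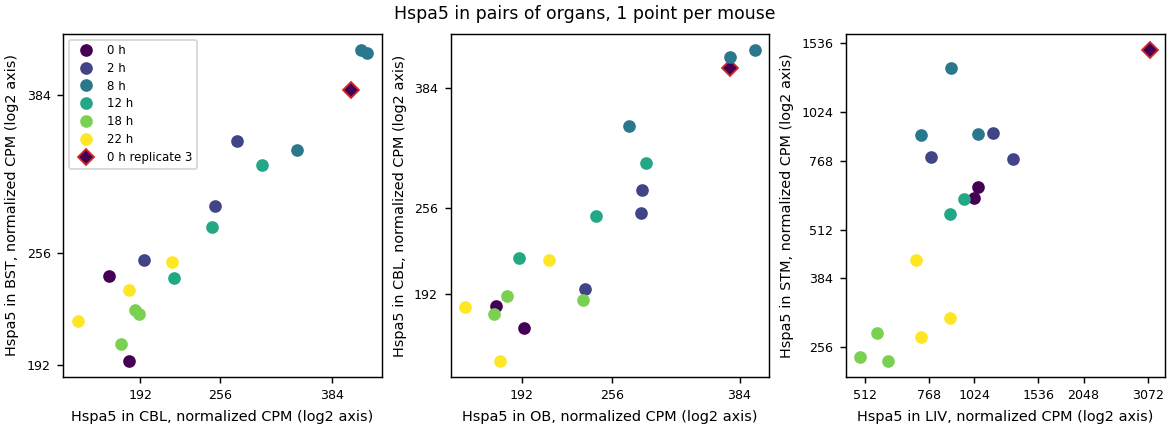
Hspa5 in pairs of organs, in normalized CPM on log2 axes, with 1 point for each mouse, coloured by hours without food. CBL and BST, and OB and CBL, line up across mice of all times, with 0 h replicate 3 (red outline) beside the 8 h mice. In LIV and STM the mice of 18 and 22 h fill the lower part.

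The genes whose pattern was most like that of Hspa5 were other ER folding genes. Over the retained libraries, with organ means taken out and among the 11678 genes that passed the filter in every organ, the 5 genes outside the members with the highest Pearson r were Pdia6 (0.84), Hsp90b1 (0.81), Calr (0.79), Dnajb11 (0.79) and Pdia3 (0.77), where the median gene had 0.05. Among the members, Pdia4 came first of all genes (0.88), followed by Sdf2l1 (0.78), Hyou1 (0.75), Manf (0.72), Xbp1 (0.70) and Creld2 (0.69). Dnajb9 (0.56), Herpud1 (0.45) and Atf6 (0.25) were less like it, and Atf6 ranked 1470th. In LIV alone the 5 were Morf4l2 (0.91), Dnajb11 (0.90), Gfpt1 (0.90), Pdia3 (0.90) and Lrrc59 (0.88). The order of the members differed there: Pdia4 (0.94), Hyou1 (0.94), Dnajb9 (0.92), Sdf2l1 (0.91), Manf (0.89) and Creld2 (0.82) were most like Hspa5. Xbp1 (0.43), Herpud1 (0.23) and Atf6 (0.16) were less like it. These are descriptions across libraries that share mice, lanes and time points.

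Other genes of the pathway were followed through lists given in the processing notes. In STM after 18 and 22 h, 17 of 24 other ER folding genes were lower and none higher, where 9.09% of all genes were lower, among them the disulfide isomerases Pdia6 (-1.30), Pdia3 (-1.02) and Pdia5 (-1.35). The same held for 16 of 24 genes of the translocon and secretory entry, such as Ddost (-1.02) and Ostc (-1.39) of the oligosaccharyltransferase and Ssr2 (-1.04) of the translocon-associated complex, and for 3 of 20 genes of ER-associated degradation, Selenos (-1.41), Edem1 (-0.70) and Erlec1 (-0.81). Without the third fed mouse the counts were 7, 4 and 1, where 3.02% of all genes were called. Ostc was then at -0.90, Ssr2 at -0.66 and Pdia5 at -1.35. Median log2 fold changes of these lists were -0.81, -0.69 and -0.27 with all mice and -0.54, -0.41 and -0.20 without that mouse. Of 13 sensors and transcription factors, 2 were lower, the sensor PERK itself (Eif2ak3, -0.97) and Creb3 (-0.67), and none without that mouse (-0.95 and -0.39).

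In LIV 9 of the 24 other folding genes were lower and 1 higher, where 5.39% of all genes were lower. The PERK inhibitor and co-chaperone Dnajc3 (-0.63), P4hb (-0.59) and Pdia6 (-0.82) were the lower ones with the smallest adjusted p, and Fkbp2 (0.48), a prolyl isomerase, was the higher one. Of the translocon and secretory entry 13 of 24 were lower, such as Sec23b (-0.61), Ddost (-0.66) and Ssr3 (-0.45). Of degradation 4 of 20 were lower, among them Derl3 (-2.51) and Edem1 (-0.58), which were at -1.44 and -0.35 without the third fed mouse. Without the third fed mouse 4 folding genes were lower and 1 higher, 3 of the translocon list were lower, and none of degradation (6.57% of all genes called). Of 12 sensors and transcription factors 1 was lower with that mouse and none without it. The median log2 fold changes of the 3 lists of folding, translocon and degradation genes were -0.35, -0.41 and -0.19 with all mice and -0.18, -0.31 and -0.12 without it.

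In the PERK and ATF4 branch, 1 of 14 genes was called in LIV, where 10.6% of all genes were, and it was Chac1, a glutathione-degrading enzyme induced by ATF4, which was higher (2.73), with a median for the list of 0.44, and without the third fed mouse 2 were higher, Chac1 at 2.40. In STM, 2 of 15 were called, against 15.3% of all genes: Atf5, a transcription factor, was higher (0.85) and Asns, asparagine synthetase, lower (-1.09). Without the third fed mouse Asns was called (-1.07, adjusted p = 0.032 from edgeR) and Atf5 was not (0.92, adjusted p = 0.0515). Of 16 cytosolic and mitochondrial heat shock genes, 8 were lower in STM, among them Dnaja1 (-0.96), and 2 in LIV, Dnaja1 (-0.58) and Hspa1b (-1.50), where 9.09% and 5.39% of all genes were lower. Without that mouse 1 was lower in STM, and 1 was lower and 1 higher in LIV, where 3.02% and 6.57% of all genes were called. The log2 fold change of Dnaja1 was then -0.31 in STM (adjusted p = 0.244), and that of Hspa1b -0.71 in LIV (adjusted p = 0.327).

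List genes were also called in BRN and iBAT. In BRN after 18 and 22 h, 4 of 24 folding genes were higher and none lower, where 7.08% of all genes were higher: the prolyl isomerases Fkbp2 (1.17) and Ppib (0.64) and Cnpy2 (0.85) were those with the smallest adjusted p, and without the third fed mouse Fkbp2 alone was called (1.53% of all genes called). These calls come with the transcript length slopes and library series of the fed BRN libraries given above. With library series or with lane as covariate, 0% of all genes were called in this comparison, so no list gene was called. With the length trend taken out 5.36% of all genes were called, and its part in the list counts was not tested. Of 24 translocon genes 3 were higher in BRN, Spcs1 (0.86), Ssr4 (0.99) and Sec62 (0.53), and none without that mouse. In iBAT 5 of 24 folding genes were higher, among them Cnpy2 (0.87), Cnpy3 (0.76) and P4hb (0.46), and Uggt1 (-0.93), the glucosyltransferase of glycoprotein quality control, was lower, where 7.91% of all genes were higher and 13% lower. Of 23 translocon genes 4 were higher there, and of 11 sensors and transcription factors 6 were lower, among them Eif2ak3 (-0.995). Without the third fed mouse these counts were 2 higher and 2 lower, 3, and 4, where 17.2% of all genes were called. The part of the transcript length values of the 22 h libraries of iBAT in its counts was not tested.

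Where 18 and 22 h were set against 8 and 12 h, 8 of 24 folding genes were lower in STM, among them Dnajc3 (-1.02), Pdia6 (-0.94) and Hsp90b1 (-0.94), where 1.71% of all genes were lower, and 13 without replicate 3 (4.26%). Pdia3 (-0.48) and Hsp90b1 (-0.47) were lower in CBL and Calr (-0.40) and Hsp90b1 (-0.23) in BST, each 2 of 24 folding genes, where 0.795% and 0.328% of all genes were called. Without replicate 3 the counts were 5 in CBL (1.46%) and 4 in BST (0.873%). In OB 4 folding genes were lower, among them Uggt1 (-0.33), Dnajc3 (-0.35) and Dnajc1 (-0.33), and 4 higher, among them Cnpy2 (0.29), Cnpy3 (0.32) and Sil1 (0.30), where 14.2% of all genes were lower and 15.1% higher. The slopes of log2 CPM on log2 exon length were 0.00750 to 0.0682 in the OB libraries of 8 and 12 h and -0.148 to 0.0153 in those of 18 and 22 h. With the length trend taken out, 14.8% of all genes and 4 of the members were called in OB, and its part in the list counts was not tested. In iBAT 5 were higher, among them Cnpy2 (0.85), Ppib (0.64) and Tor1a (0.70), and 2 lower, Uggt1 (-0.89) and Hsp90b1 (-0.34), where 10.8% of all genes were higher and 12.5% lower. With library series as covariate 0% of all genes were called in iBAT, so none of these calls stood. With the length trend taken out 12.9% were called, and its part in the iBAT list counts was not tested.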

How the data were processed

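Per the labels and the study's methods, poly(A) RNA of 9 organs of 18 mice was made into stranded libraries and sequenced as read pairs. The deposited table holds raw counts per gene, which the authors made with TopHat2 2.1.1 on GRCm38.p5, uniquely mapped reads, and HTSeq 0.9.1 over Gencode exons. The strand setting is not given in the sources used here, so reads of overlapping antisense genes may be mixed in. The columns were matched to the samples through the library names in the labels. Of the deposited data only the counts and the labels were used, and lanes and library series were read from the library names. Exon lengths and gene positions came from Gencode.

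Libraries with a log10 total over 2 SD below the mean of their organ were left out (5 of 162). The study states a limit of 2 SD for total reads, without naming a log scale, and retained as many libraries. On the totals of this table as they are, that limit leaves out 1 library. Its expression-based phases were not used, because the labels give only fasting times. Within each organ, genes had to reach the CPM that equals 10 counts in a library of median size in at least 3 libraries. edgeR 4.0.16 (R 4.3.3, TMM factors, robust quasi-likelihood fit, time as a factor) was used to test all 5 times together, the mean of 18 and 22 h and that of 8 and 12 h against 0 h, the 2 means against each other, and each time against 0 h. Benjamini-Hochberg adjustment ran over all genes tested, with 0.05 as threshold. All these comparisons within an organ share their 0 h libraries. Replicates are separate mice, and the same time and replicate number was taken as the same mouse in every organ. Organs were compared in 1 fit over all libraries with the mouse as block. Correlations of Hspa5 between organs were tested by permutation, 36 pairs in all.

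The 10 members and the lists (ER folding, ER-associated degradation, translocon and secretory entry, stress sensors and transcription factors, PERK and ATF4 branch, cytosolic and mitochondrial heat shock) were chosen with earlier results of these data known. The members are named whatever their result. From each list at most 3 genes per direction with the smallest adjusted p were named, and for likeness the 5 genes with the highest r to Hspa5. Promoters came from RefSeq. On simulated counts the test recovered 62.24% of genes changed by 1 and 93% of those changed by 2 on the log2 scale in LIV for 18 and 22 h against 0 h (13800 genes), and 35% and 85.71% in STM (15980 genes). Alternatives tried were DESeq2 1.42.0, RLE factors, other filters, all 162 libraries, each library left out in turn, a replicate block, lane or library series as covariate, and a transcript length trend taken out. The fits within a lane, without the third fed mouse at single times or between organs, without 3 fat libraries, and 17 of the 18 contrasts between organs were added after seeing the data.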

Additional observations from a re-analysis of the deposited data

Results flagged for a closer look

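The members whose change in an organ differed from the mean change in the other 8 organs, by the test of the interaction at adjusted p under 0.05, were looked at again. Of the 18 contrasts run, 1 was planned (LIV, 18 and 22 h against 0 h) and 17 were added after seeing the data, and 7 gave a call. Each value is a log2 difference between the change in the organ and the mean change elsewhere.

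In STM, the members that fell by more than elsewhere in 18 and 22 h against 0 h were Hspa5 (-1.11), Dnajb9 (-0.76), Pdia4 (-0.93), Sdf2l1 (-1.98), Creld2 (-0.93), Manf (-1.17), Herpud1 (-0.79) and Xbp1 (-0.87), and against 8 and 12 h they were Hspa5 (-1.02), Hyou1 (-0.83), Dnajb9 (-0.83), Pdia4 (-0.73), Sdf2l1 (-1.40), Manf (-0.73), Herpud1 (-0.77) and Xbp1 (-0.69). In LIV they were Hspa5 (-0.77) and Dnajb9 (-1.10) against 0 h. In both organs the fed libraries were of another lane than those of 18 and 22 h, and without the third fed mouse 3 members were called in STM and 0 in LIV against 0 h.

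In iBAT, the members above the other organs in 18 and 22 h against 0 h were Dnajb9 (0.69), Herpud1 (0.64) and Xbp1 (0.68), with Atf6 (-0.52) below. Against 8 and 12 h, Hspa5 (0.53), Dnajb9 (0.56), Sdf2l1 (1.68), Manf (0.69) and Xbp1 (0.55) were above and Atf6 (-0.52) below. The 22 h iBAT libraries had mitochondrial shares of 5.47% and 11.8% of their counts, against 12.9% to 36.2% in the other iBAT libraries, besides the transcript length slopes given in the report. The part of either in these differences was not tested.

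In pgWAT, Pdia4 (0.82), Manf (1.30) and Xbp1 (0.70) were above the other organs against 0 h, and Hspa5 (0.61), Hyou1 (0.68), Pdia4 (0.86), Manf (0.88) and Xbp1 (0.68) against 8 and 12 h. Without the 3 fat libraries that carried markers of another tissue, 1 and 2 of these contrasts' members were called. The fed pgWAT libraries were of another lane than those of 18 and 22 h, so that against 0 h lane and time cannot be told apart there.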

How the results depend on the processing

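The counts of members called moved with the treatment of lanes, of low counts and of single libraries. Percentages in brackets are shares of all genes called by the same fit. Of 571 refits of single called members with 1 library left out, 453 stayed past the threshold and none turned its sign. With lane as a covariate, the counts fell to 0 in STM and LIV for the joint test (0% and 2.1% of all genes) and for 18 and 22 h against 0 h, to 0 in LIV for 8 and 12 h against 0 h (4.96%), to 0 in BRN for both comparisons with 0 h (0%), and for 18 and 22 h against 8 and 12 h to 2 in OB (20.1%) and 0 in STM (0%). The cause was not tested beyond the fits within a lane, which gave 7 in OB (18.2%) and 0 in STM (0.0128%). With the series of library numbers as covariate, the joint counts were 1 in LIV (9.23%) and 0 in iBAT (2.35%), those against 0 h were 0 in BRN (0%), and those of 18 and 22 h against 8 and 12 h were 0 in BST (0.131%) and 0 in iBAT (0%). With the length trend taken out, the joint counts were 0 in OB (6.53%) and 0 in iBAT (18.6%), BRN had 0 after 18 and 22 h (5.36%) and after 8 and 12 h (0.424%), iBAT 1 after 18 and 22 h (13.4%), LIV 2 after 8 and 12 h (9.46%), and 18 and 22 h against 8 and 12 h gave 0 in BST (0.298%) and 1 in iBAT (12.9%).

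DESeq2 gave joint counts of 2 in OB (22.5%), 5 in CBL (11.1%), 2 in BST (1.26%), 8 in STM (17.2%), 6 in LIV (25.6%) and 1 in psWAT (12.3%), counts after 8 and 12 h of 3 in LIV (11.7%) and 1 in iBAT (1.84%), and counts for 18 and 22 h against 8 and 12 h of 4 in CBL (2.07%), 2 in BST (0.727%) and 1 in LIV (6.23%). Without a filter on low counts the joint counts were 8 in OB (14.2%), 1 in BRN (7%), 2 in CBL (8.09%), 2 in BST (2.45%) and 10 in LIV (15.8%), with 2 in OB after 18 and 22 h (5.1%), 8 in LIV after 8 and 12 h (6.88%), and 8 in OB (15.6%), 2 in CBL (1.73%), 3 in BST (1.04%) and 7 in LIV (5.48%) for 18 and 22 h against 8 and 12 h. LIV had 2 after 8 and 12 h with RLE factors (8.94%) and 2 with a filter at 50 counts (13.7%). With the 5 shallow libraries kept the joint count was 2 in iBAT (30.7%), BRN had 0 in both comparisons with 0 h (0% and 0.09%), and 18 and 22 h against 8 and 12 h gave 3 in STM (0.263%) and 1 in iBAT (21.2%). Same-numbered mice of different times had mean correlations of their deviations between -0.07 and 0.03 in 8 organs and of 0.16 in iBAT, where mice of other numbers had -0.08. In no organ was every such correlation above 0.1, so the numbers were not taken to pair the samples. The replicate block gave joint counts of 2 in OB (18.2%), 1 in CBL (3.53%), 1 in BST (0.197%) and 1 in LIV (11.8%), 3 in LIV after 18 and 22 h (8.82%), and 3 in CBL for 18 and 22 h against 8 and 12 h (1.13%).

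With lane as a covariate the share of all genes called went from 15.3% to 0% in STM and from 10.6% to 0.15% in LIV for 18 and 22 h against 0 h. Without a filter the members' joint count in LIV and their count in OB for 18 and 22 h against 8 and 12 h rose while the share of all genes did not.

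Over fits that each left out 1 library, the joint counts ran from 0 to 8 in OB, 0 to 6 in CBL, 0 to 4 in BST, 3 to 8 in STM, 1 to 6 in LIV and 0 to 7 in iBAT. Those for 18 and 22 h against 0 h ran from 0 to 1 in OB, 0 to 2 in BRN, 5 to 8 in STM, 2 to 6 in LIV and 1 to 4 in iBAT, and those for 8 and 12 h from 0 to 3 in OB, 0 to 1 in BRN, 0 to 5 in CBL, 0 to 4 in BST and 1 to 2 in LIV. Those for 18 and 22 h against 8 and 12 h ran from 2 to 8 in OB, 0 to 3 in BRN, 0 to 6 in CBL, 0 to 4 in BST, 0 to 8 in STM, 0 to 3 in LIV and 0 to 3 in iBAT. Over the same fits, 489 to 3407 of all genes were called in STM and 585 to 1609 in LIV for 18 and 22 h against 0 h. In the joint test, 1019 to 3680 of all genes were called in OB, 22 to 1673 in CBL and 1 to 207 in BST. There were 1274 to 2886 in LIV, 876 to 5346 in iBAT and up to 1742 in STM. For 18 and 22 h against 8 and 12 h, there were 3142 to 5482 in OB, 0 to 1417 in STM and 0 to 4993 in iBAT. The counts of all genes thus moved widely too, and the ranges of the member counts are not particular to the members. Without 0 h replicate 3, the calls at 8 h against 0 h over the 9 organs went from 0 to 17, and that library also gave the ends 8 in OB, 6 in CBL, 4 in BST and 6 in LIV of the joint counts.

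From the 0 h libraries alone, 5 members in iBAT (51.2%) and 3 in psWAT (52.4%) differed from the mean of the other organs, and 3 log2 differences changed sign, to 0.058 for Hyou1 and 0.19 for Atf6 in BRN and to -0.17 for Herpud1 in iBAT. CPM on raw totals put 5 members highest in LIV. Among the promoter patterns, CCAAT matched in 6 of the 7 members, CCACG in 5, ERSE-II in 1 and the core of the XBP1 element in 0. Against the mean change of the other organs and without the third fed mouse, the counts after 18 and 22 h were 0 in LIV (0.0909%), 3 in STM (2.03%), 1 in iBAT (9.41%) and 0 in pgWAT (0.296%), and 1 in LIV for 18 and 22 h against 8 and 12 h (0.332%). Without the 3 fat libraries they were 5 in LIV (1.23%) and 1 in pgWAT (2.46%), and then 1 in LIV (0.523%) and 2 in pgWAT (0.155%). Groups of 2 or 3 mice and 1 deviating fed mouse limit the comparisons with 0 h, as do lanes that run with time in OB, STM, LIV and pgWAT, and counts of Sdf2l1 in iBAT were near the depth limit.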

Other observations

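Some cytosolic and mitochondrial heat shock genes were lower after 18 and 22 h than after 8 and 12 h, with the most calls in iBAT. Of 16 such genes, 10 were lower and 1 higher in iBAT, where 12.5% of all genes were lower, 4 were lower in LIV (1.58%), 2 in STM (1.71%), 1 in CBL (0.363%) and 1 in BST (0.161%), while in OB 3 were lower and 2 higher (14.2% and 15.1%). In the fit without 0 h replicate 3, which was chosen after the data had been seen, 10 were lower in iBAT (12.3%), 8 in LIV (2.68%), 7 in STM (4.26%), 4 in BST (0.49%), 1 in CBL (0.715%) and 3 in OB (15.5%). That fit also had 1 higher in iBAT and 2 in OB, where 23.4% and 31.9% of all genes were called. The 16 log2 fold changes were all below 0 in BST, with a median of -0.19, and 15 of 16 were in STM and in iBAT. With all fed mice, 0% of all genes were called in iBAT with library series as covariate. The share was also 0% in LIV and STM with lane as covariate. Within the later lane 0.0146% were called in LIV and 0.0128% in STM. The 22 h iBAT libraries had fewer reads from long transcripts, and the part of this in the heat shock counts was not tested. Against 0 h, the fit without that mouse gave 4 higher in BST after 8 and 12 h (1.41% of all genes higher), 3 higher and 1 lower in LIV (4.48% and 5.03%) and 1 higher in iBAT (0.0345%), whereas with all fed mice 2 were lower in LIV (4.81%) and 2 were higher in BRN (5.34%).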
